A study of Mus musculus with 8 samples.

Results

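The adipocyte genes were Adipoq, Plin1, Fabp4, Lep, Cfd, Retn, Cidec, Pparg, Lpl and Cd36, a list of 10 genes that are strongly expressed in fat cells. They were measured in the thoracic annulus fibrosus, the fibrocartilage ring of the intervertebral disc, on 8 Affymetrix arrays. Each gene was read from the probe set with the highest mean among those that the array annotation gives to that gene alone, and 9 of the 10 had one, out of 22180 genes on the array with such a probe set. Cfd (adipsin) is not analysed here. Lep had a mean of 6.17 (log2), below the filter level of 6.21 set for the tests, so 8 adipocyte genes were among the 15526 genes tested.

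All mice were of the Black 6 strain. WT and ENT1-null mice were compared at 2 months and at 6 months of age, which made 4 groups of 2 arrays each. ENT1-null mice lacked exons 2 to 4 of Slc29a1, which encodes equilibrative nucleoside transporter 1 (ENT1), a carrier of adenosine across the cell membrane. The labels name no promoter, Cre or cell type, and each array held RNA pooled from 5 to 6 annulus tissues. Nothing says that the pools of 1 group were drawn from different mice, so p-values reflect only how far apart the pools were. Slc29a1 itself was between 10.34 and 10.71 (log2) on the 4 WT arrays and between 8.80 and 9.36 on the 4 ENT1-null arrays, with no overlap. All 10 annulus and cartilage markers on a list that includes Acan and Prg4 had a mean above the filter level.

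Fat cells store triglyceride in a lipid droplet and release hormones called adipokines. Their differentiation depends on Pparg, a nuclear receptor that binds DNA together with retinoid X receptors and turns on genes of fatty acid uptake and storage. The vertebral marrow next to the disc holds adipocytes, and adipose tissue lies around the spine. Several genes of the list are not restricted to fat: capillary endothelium carries Fabp4 and Cd36, macrophages carry Pparg, Cd36 and Lpl, and muscle carries Lpl and Cd36. Adipoq, Plin1, Cidec, Lep and, in mice, Retn are more nearly restricted to adipocytes.

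Promoter windows of the 250 bases before each annotated start were taken from RefSeq (GRCm38.p6), in which 8 of the 10 genes had at least 1 window and the genes together had 11. The window of Adipoq and those of the first and the last Pparg start are shown because these 2 genes rose with age in ENT1-null annulus, and that of Lep because all of its ENT1-null values lay below its WT values. Capitals mark matches, on either strand, to TTGCNNAA, the kind of site bound by C/EBP factors, to the CCAAT box, to the TATA box, spelled TATAAA, or to AGGTCA, the element recognised by 1 partner of a nuclear receptor pair.
Adipoq, chr16:23146286-23146535, plus strand: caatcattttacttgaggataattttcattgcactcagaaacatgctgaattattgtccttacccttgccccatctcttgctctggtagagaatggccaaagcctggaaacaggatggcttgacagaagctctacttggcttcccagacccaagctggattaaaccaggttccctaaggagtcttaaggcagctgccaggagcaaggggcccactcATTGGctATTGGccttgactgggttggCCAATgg
Pparg first start, chr6:115360894-115361143, plus strand: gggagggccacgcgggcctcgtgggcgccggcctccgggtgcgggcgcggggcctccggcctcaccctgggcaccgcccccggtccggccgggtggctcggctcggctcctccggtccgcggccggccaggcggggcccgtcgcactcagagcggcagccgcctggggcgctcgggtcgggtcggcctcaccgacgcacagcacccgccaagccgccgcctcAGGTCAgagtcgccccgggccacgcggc
Pparg last start, chr6:115421816-115422065, plus strand: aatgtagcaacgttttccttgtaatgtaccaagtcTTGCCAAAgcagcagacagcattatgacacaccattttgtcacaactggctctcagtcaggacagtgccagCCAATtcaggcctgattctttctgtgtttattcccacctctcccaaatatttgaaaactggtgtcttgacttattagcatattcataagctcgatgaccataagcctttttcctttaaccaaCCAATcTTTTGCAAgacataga
Lep, chr6:29059971-29060220, plus strand: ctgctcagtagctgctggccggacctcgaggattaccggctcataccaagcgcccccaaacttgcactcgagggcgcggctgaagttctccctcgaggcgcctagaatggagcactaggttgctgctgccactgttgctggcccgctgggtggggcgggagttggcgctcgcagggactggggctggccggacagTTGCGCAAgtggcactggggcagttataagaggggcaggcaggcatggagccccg
The Adipoq window held 3 CCAAT motifs and no TTGCNNAA, and the window of the last Pparg start held 2 of each, one pair of them side by side close to the start. The window of the first Pparg start held 1 AGGTCA, and that of Lep a single palindromic TTGCGCAA that reads alike on both strands. Among all 32851 windows of the same length, 9.56% held TTGCNNAA, 33.8% CCAAT, 14.0% AGGTCA and 12.4% TATAAA. A direct repeat of AGGNCA with 1 base between its copies, the form that PPARG binds with its partner, lay in 0.338% of all windows and in none of the 11 windows of the adipocyte genes. A match is only a run of letters, and the arrays did not measure binding.

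Among the adipokines, Adipoq (probe set 17324404) encodes adiponectin. On the log2 scale its level was 7.07 and 7.29 in 2 month WT, 7.59 and 7.39 in 2 month ENT1-null, 7.55 and 7.70 in 6 month WT, and 7.89 and 8.11 in 6 month ENT1-null. The ENT1-null arrays were above the WT arrays of their age throughout, and the 6 month arrays of ENT1-null were above all other arrays. Lep, which encodes leptin, was 6.24 and 6.38 in 2 month WT, 5.77 and 6.15 in 2 month ENT1-null, 6.34 and 6.74 in 6 month WT, and 5.83 and 5.93 in 6 month ENT1-null. All 4 ENT1-null arrays lay below all 4 WT arrays, whereas Adipoq was higher in ENT1-null at each age. Retn, which encodes resistin, was 7.48 and 8.03 in 2 month WT, 8.15 and 7.94 in 2 month ENT1-null, 7.67 and 8.63 in 6 month WT, and 7.57 in both 6 month ENT1-null arrays. The 6 month WT arrays differed from each other by 0.96, more than any 2 group means of this gene did.

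Plin1 and Cidec encode proteins on the surface of the lipid droplet, of which perilipin 1 guards the stored fat and CIDEC enlarges droplets by fusing them. Plin1 was 7.31 and 7.73 in 2 month WT, 7.47 and 7.68 in 2 month ENT1-null, 7.82 and 7.87 in 6 month WT, and 7.70 and 7.53 in 6 month ENT1-null. Cidec was 7.32 and 7.74 in 2 month WT, 7.82 and 7.75 in 2 month ENT1-null, 7.69 and 8.11 in 6 month WT, and 7.76 and 7.88 in 6 month ENT1-null. Both had their lowest value in 2 month WT replicate 1 and their highest in 6 month WT replicate 2, and the genotypes overlapped in Plin1 at 2 months and in Cidec at 6 months.

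Lpl, Cd36 and Fabp4 act in sequence in fat uptake, as the lipase that frees fatty acids from lipoproteins, a fatty acid carrier at the membrane, and a binding protein in the cytosol. Lpl was 7.32 and 8.57 in 2 month WT, 8.63 and 9.60 in 2 month ENT1-null, 8.77 and 8.88 in 6 month WT, and 9.29 and 9.24 in 6 month ENT1-null. Cd36 was 8.52 and 9.42 in 2 month WT, 9.74 and 10.01 in 2 month ENT1-null, 9.77 and 9.73 in 6 month WT, and 10.22 and 10.44 in 6 month ENT1-null. In both genes the ENT1-null arrays were above the WT arrays at each age, and the 2 month WT arrays spread more than the arrays of 6 month WT. Fabp4 was 9.59 and 10.57 in 2 month WT, 10.31 and 10.89 in 2 month ENT1-null, 10.74 and 10.19 in 6 month WT, and 10.91 and 10.97 in 6 month ENT1-null, so that the genotypes overlapped at 2 months but not at 6.

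Pparg (probe set 17461942), the nuclear receptor, was 7.53 and 7.92 in 2 month WT, 8.20 and 8.18 in 2 month ENT1-null, 8.27 and 8.15 in 6 month WT, and 8.90 and 8.99 in 6 month ENT1-null. Its replicates differed by 0.39 in 2 month WT and by at most 0.11 in size in the other groups, and both 6 month ENT1-null arrays were above every other array. The means of 2 month ENT1-null and 6 month WT, 8.19 and 8.21, did not differ beyond the spread of their arrays.

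**Figure D1:**
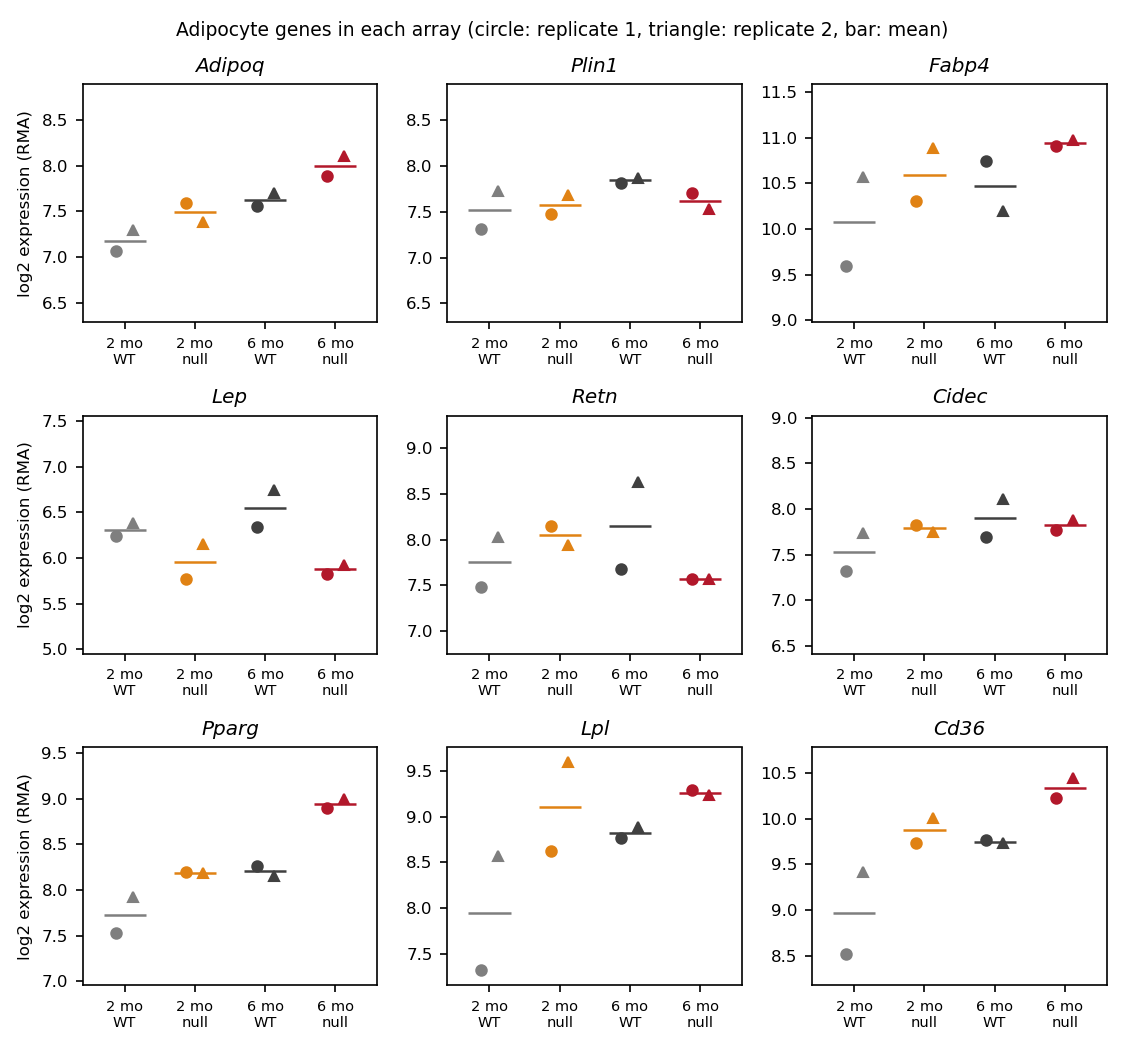
Log2 (RMA) expression of 9 adipocyte genes in each array, by group; circles are replicate 1, triangles replicate 2 and bars group means. Vertical axes have the same span but different positions. Adipoq, Pparg, Lpl and Cd36 are higher in ENT1-null than in WT of the same age on every array, and Lep is lower.

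One array stood apart in most of these genes. Of the 9 genes measured, 8 had their lowest value in 2 month WT replicate 1, the exception being Lep, whose lowest value was in 2 month ENT1-null replicate 1. The highest value was in 6 month WT replicate 2 for Plin1, Lep, Retn and Cidec, in 6 month ENT1-null replicate 2 for Adipoq, Fabp4, Pparg and Cd36, and in 2 month ENT1-null replicate 2 for Lpl. The mean log2 level of the 9 genes was 7.60 and 8.18 in 2 month WT, 8.19 and 8.40 in 2 month ENT1-null, 8.29 and 8.45 in 6 month WT, and 8.45 and 8.52 in 6 month ENT1-null. Results at 2 months and by age in WT are therefore given with and without 2 month WT replicate 1.

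At 6 months Pparg was the 1 adipocyte gene of the 8 tested that rose in ENT1-null annulus, and none fell; of all genes tested 38.8% were called, 21.2% as higher and 17.6% as lower. Pparg was higher by 0.74 ± 0.13 (log2, SE of the limma fit), or 1.67-fold, with a 95% interval of 0.43 to 1.04 and a limma adjusted p of 0.00378, and it was called under all 19 alternative settings, with differences of 0.65 to 0.79. Adipoq differed by 0.37 ± 0.13 (limma adjusted p = 0.0522), just outside the threshold of 0.05. It passed that threshold with a filter at the 50th percentile or with median centring. It was called under 3 of the 19 alternative settings in all, the last of them being the looser threshold of 0.1. Cd36 differed by 0.58 ± 0.26 (adjusted p = 0.116), Fabp4 by 0.47 ± 0.33 (adjusted p = 0.2998) and Lpl by 0.44 ± 0.42 (adjusted p = 0.434). Cd36 was called when either 2 month WT array was left out (adjusted p = 0.0122 and 0.0123); these arrays enter this comparison only through the estimate of the spread. In these 5 genes both ENT1-null arrays were above both WT arrays, and in Plin1 and Retn both were below. Over all genes tested, 35.6% were higher and 36.8% lower without overlap, so that non-overlap alone is common in this comparison.

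The other genes more nearly restricted to fat had negative differences at 6 months. Plin1 differed by −0.23 ± 0.15 (limma adjusted p = 0.256), Cidec by −0.08 ± 0.17 (adjusted p = 0.744) and Retn by −0.59 ± 0.30 (adjusted p = 0.160). The Cidec difference turned to 0.13 without 6 month WT replicate 2. The Retn difference was called, at −1.06, when 6 month WT replicate 1 was left out and was −0.11 without 6 month WT replicate 2. Lep differed by −0.67, and with no filter on low values, where it could be tested, it was lower with an SE of 0.17 and an adjusted p of 0.0212. The median difference of the 8 genes was 0.41, beside −0.03 over all genes tested.

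At 2 months none of the 8 adipocyte genes passed the limma test after adjustment, and 4 did at an unadjusted p below 0.05 (Adipoq, Pparg, Lpl and Cd36); of all genes tested 0.683% were called, and 19.4% had an unadjusted p below 0.05. With all arrays the 8 differences were positive. Lep, below the filter level and not among the 8, differed by −0.35, with both ENT1-null arrays below both WT arrays. Lpl differed by 1.17 ± 0.42 (limma adjusted p = 0.187), Cd36 by 0.90 ± 0.26 (adjusted p = 0.122), Pparg by 0.47 ± 0.13 (adjusted p = 0.115) and Adipoq by 0.31 ± 0.13 (adjusted p = 0.241). Fabp4 gave 0.51 ± 0.33, Retn 0.29 ± 0.30, Cidec 0.26 ± 0.17 and Plin1 0.06 ± 0.15, with adjusted p of 0.445 to 0.870. In 5 genes, Adipoq, Cidec, Pparg, Lpl and Cd36, the ENT1-null arrays were higher without overlap, as were 19.0% of all genes tested. The median of the 8 differences was 0.39, beside −0.04 over all genes. Without 2 month WT replicate 1 it was 0.12. Lpl was then 0.54, Cd36 0.45, Pparg 0.27 and Adipoq 0.20, Fabp4, Retn and Cidec lay between 0.02 and 0.05, and Plin1 turned to −0.15. All 8 values had to be lower without that array, which held the lowest value of each of these 8 genes. Among the 8, the uniform sign was lost. Plin1 also turned negative without 2 month ENT1-null replicate 2, as replicate 1, at 7.47, lay below the 2 month WT mean of 7.52. Without 2 month WT replicate 2 the median was 0.62, with Pparg at 0.66 and Cd36 at 1.35. Without 2 month ENT1-null replicate 1 the median, then over 9 genes, was 0.22.

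**Figure D2:**
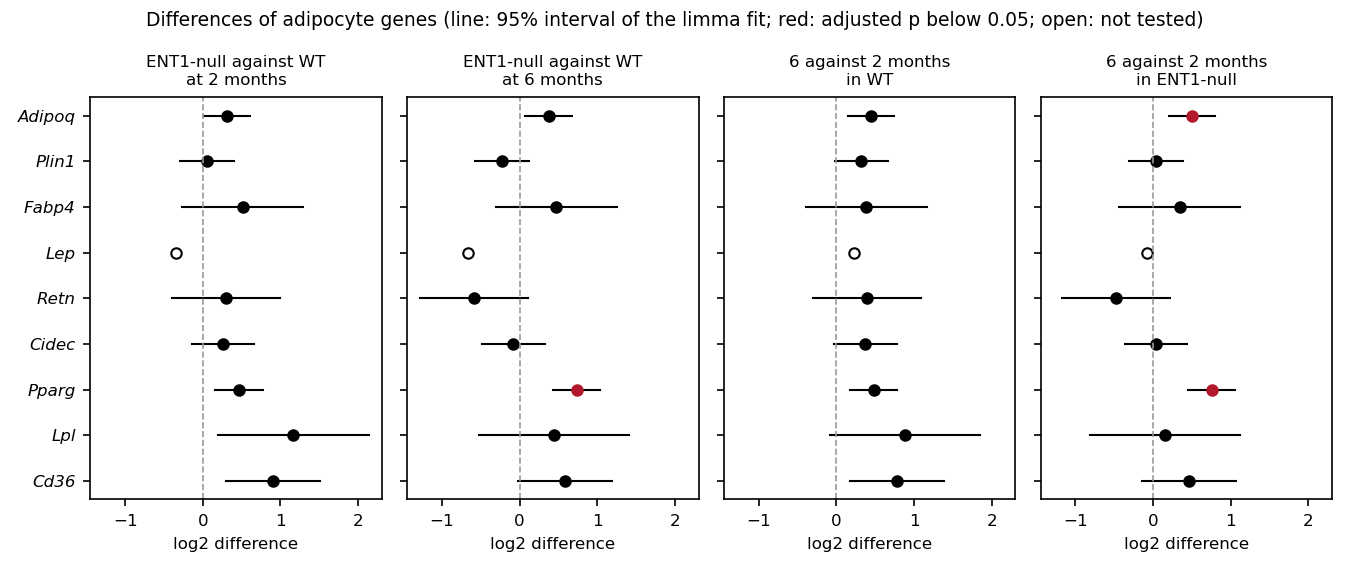
Log2 differences of the adipocyte genes in 4 comparisons, with the 95% interval of the limma fit as a line; red points passed an adjusted p of 0.05 and open points (Lep) were below the filter level and not tested. Pparg is red at 6 months, and Pparg and Adipoq are red with age in ENT1-null; all 8 tested genes lie right of 0 at 2 months and with age in WT.

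The 2 ages share no arrays, and the difference between their genotype effects was tested as an interaction. No adipocyte gene passed that limma test, nor had any an unadjusted p below 0.05, while 4.45% of all genes were called and 27.0% had such a p. The interaction was 0.27 ± 0.18 for Pparg (limma adjusted p = 0.395), 0.06 ± 0.18 for Adipoq (adjusted p = 0.867) and −0.88 ± 0.42 for Retn (adjusted p = 0.229). With 95% intervals of −0.16 to 0.70 for Pparg and −1.86 to 0.10 for Retn, the arrays do not show whether the genotype difference was alike at both ages.

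Between 2 and 6 months in ENT1-null annulus, 2 of the 8 genes rose and none fell; 22.2% of all genes tested were called, 11.9% as higher. Pparg was higher at 6 months by 0.75 ± 0.13, or 1.69-fold (limma adjusted p = 0.00763), and Adipoq by 0.51 ± 0.13, or 1.42-fold (adjusted p = 0.0273). The Pparg call was lost without 6 month ENT1-null replicate 2, at 0.71 (adjusted p = 0.0508). The Adipoq call was lost without that array, at 0.39, and without 2 month ENT1-null replicate 1 or 2, at 0.61 and 0.40. Leaving out either 2 month WT array added Cd36, whose difference was 0.46 ± 0.26 (adjusted p = 0.256) with all arrays. Retn gave −0.48 ± 0.30 (adjusted p = 0.301), and the differences of Plin1, Cidec and Lpl were 0.04, 0.04 and 0.15. Fabp4 gave 0.34 ± 0.33 (adjusted p = 0.520), and the median of the 8 was 0.25 beside −0.0049 over all genes.

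In WT annulus no adipocyte gene passed the limma test for age, and 3 (Adipoq, Pparg and Cd36) had an unadjusted p below 0.05. Of all genes tested 0% were called, and 13.3% had an unadjusted p below 0.05. With all arrays the 8 differences were positive, from 0.32 for Plin1 to 0.88 for Lpl, with Pparg at 0.48 ± 0.13 (limma adjusted p = 0.260), Adipoq at 0.44 ± 0.13 (adjusted p = 0.275) and Cd36 at 0.78 ± 0.26 (adjusted p = 0.313). The 6 month arrays were higher without overlap in 5 genes, as in 13.5% of all genes tested. The median was 0.42 beside −0.06 over all genes, and 0.21 without 2 month WT replicate 1. Without that array Fabp4 turned to −0.10, Lpl was 0.25, Cd36 0.33, Pparg 0.29, Adipoq 0.33, Cidec 0.17, Retn 0.12 and Plin1 0.11. Retn turned to −0.08 when 6 month WT replicate 2 was left out instead. The WT arrays of 2 months enter both this comparison and that of genotype at 2 months, and the ENT1-null arrays of 6 months both comparisons in which Pparg was called.

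A further 7 lists covered the rest of adipocyte biology, from lipid droplets to receptors. They held 114 genes, of which 104 were read from a probe set of their own and 100 were tested. At 6 months 13 of these were higher in ENT1-null, 21 were lower and 66 did not pass, with a median of −0.04, beside 21.2% higher and 17.6% lower of all genes tested. At 2 months 1 of the 100 passed, Lpin1, a phosphatidate phosphatase of triglyceride synthesis, which fell by 0.72 ± 0.11 (limma adjusted p = 0.0443). Its levels were 9.61 and 9.58 in 2 month WT and 8.79 and 8.96 in 2 month ENT1-null, and the call was lost when any of the 4 arrays of 2 months or either 6 month ENT1-null array was left out, and also with a replicate block (adjusted p = 0.0846), in the fit to only the groups compared, with all probe sets tested, or with no filter. With age none of the 100 passed the limma test in WT, and 25 had an unadjusted p below 0.05, beside 13.3% of all genes tested. In ENT1-null 9 rose and 12 fell with age, where 22.2% of all genes tested were called, 11.9% as higher. On leaving out any 1 ENT1-null array, fewer of these genes passed by age in ENT1-null, as also over all genes. The same held for the genotype comparison at 6 months without 6 month WT replicate 2.

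Of 13 lipid droplet and lipolysis genes, 3 rose at 6 months, 1 fell and 9 did not pass. Plin2, the perilipin found on droplets of most cell types, was 8.05 and 7.84 in 6 month WT and 8.99 and 9.04 in 6 month ENT1-null, a difference of 1.07 ± 0.18 (limma adjusted p = 0.00312). Abhd5, the coactivator of adipose triglyceride lipase, rose by 0.91 ± 0.14, and Mgll, which cleaves monoglycerides, by 0.58 ± 0.12. Fitm1, which acts in droplet formation mainly in muscle, fell by 1.16 ± 0.21. The lipase gene Pnpla2 gave 0.23 ± 0.13 (adjusted p = 0.194) and Plin4 −0.41 ± 0.15 (adjusted p = 0.0593). The Mgll call was lost without 6 month WT replicate 2, at 0.51.

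Of 17 genes of fatty acid and triglyceride synthesis, 2 rose at 6 months, 1 fell and 14 did not pass. Dgat1, which adds the last fatty acid to triglyceride, was 9.23 and 8.97 in 6 month WT and 10.19 and 10.20 in 6 month ENT1-null, a difference of 1.09 ± 0.13 (limma adjusted p = 0.000833). Agpat2, an acyltransferase of the same pathway, rose by 0.62 ± 0.19, and Me1, the malic enzyme that supplies NADPH, fell by 0.98 ± 0.13. The desaturase gene Scd1 gave −0.35 ± 0.21 (adjusted p = 0.217). The Agpat2 call was lost without 6 month WT replicate 2, at 0.33, and without 6 month ENT1-null replicate 1 or 2, at 0.52 and 0.72, and also under repeated quantile normalization, the replicate number as a block (adjusted p = 0.0511) and the fit to only the groups compared.

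None of 15 adipogenic transcription factors other than Pparg rose at 6 months, 3 fell and 12 did not pass. Klf4, an early factor in adipogenesis, was 10.28 and 10.11 in 6 month WT and 8.93 and 8.77 in 6 month ENT1-null, a difference of −1.35 ± 0.10 (limma adjusted p = 0.000383). Rxra, the retinoid X receptor that pairs with PPARG, fell by 0.71 ± 0.11 and Klf15 by 0.90 ± 0.21. Cebpb, which acts before Pparg in differentiation, gave −0.02 ± 0.09 (adjusted p = 0.888). The Klf15 call was lost on leaving out the second array of 6 month WT, at −0.71, or the first of 6 month ENT1-null, at −0.77.

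Of 16 genes of lipid and glucose uptake, 2 rose at 6 months, 5 fell and 9 did not pass. Fabp5, a fatty acid binding protein of skin and macrophages as well as fat, rose by 0.69 ± 0.11 (limma adjusted p = 0.00233). Cavin1, which shapes caveolae, fell by 0.74 ± 0.10 and the lipoprotein receptor gene Lrp1 by 0.45 ± 0.09. Lmf1, needed for the maturation of lipases, gave −0.20 ± 0.08 (adjusted p = 0.0764).

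Among 11 adipokine, insulin and lipolytic receptor genes, 2 rose at 6 months, 6 fell and 3 did not pass. Lepr, the leptin receptor gene, was 10.05 and 10.18 in 6 month WT and 9.17 and 9.07 in 6 month ENT1-null, a difference of −0.997 ± 0.14 (limma adjusted p = 0.00145). Npr3, the clearance receptor of natriuretic peptides, fell by 0.81 ± 0.09, Irs2 by 0.42 ± 0.10 and Irs1 by 0.38 ± 0.10, the last 2 encoding insulin receptor substrates. Cap1, whose product binds resistin and also actin, rose by 0.92 ± 0.13. The Irs1 call was lost on leaving out any of the 4 arrays of 6 months, with falls between 0.34 and 0.42 on the log2 scale, and the Irs2 call on leaving out the second array of either group, at −0.33 for WT and −0.39 for ENT1-null.

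Of 17 other genes enriched in fat, 2 rose at 6 months, 3 fell and 12 did not pass. Orm1, an acute phase glycoprotein, was 7.54 and 6.91 in 6 month WT and 9.58 and 9.29 in 6 month ENT1-null, a rise of 2.22 ± 0.24 (limma adjusted p = 0.000598). Rbp4, the retinol carrier, was 10.57 and 10.42 in 6 month WT and 9.50 and 9.16 in 6 month ENT1-null, a fall of 1.17 ± 0.12. Lgals12, a lectin of lipid droplets, fell by 0.53 ± 0.11, a call lost without 6 month WT replicate 2, at −0.42, and the sulfotransferase gene Sult1a1 gave 0.01 ± 0.14 (adjusted p = 0.947).

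Of 11 other targets of PPAR receptors, 2 rose at 6 months, 2 fell and 7 did not pass. Cpt1a, the gate of fatty acids into mitochondria, was 8.57 and 8.63 in 6 month WT and 9.46 and 10.27 in 6 month ENT1-null, a rise of 1.26 ± 0.23 (limma adjusted p = 0.00457). Abcg1, a cholesterol exporter, rose by 0.74 ± 0.10, and Pdk4, which restrains pyruvate oxidation, fell by 1.06 ± 0.19. Fgf21 gave −0.06 ± 0.11 and Ehhadh 0.14 ± 0.08, neither of which passed. The other called genes of the 7 lists, named after their values were seen, were Slc27a4, Adipor1 and Slc36a2 on the higher side and Cav1, Cav2, Slc27a3, Cdh13, Pde3b, Sncg and Ucp3 on the lower. A rule that also asks for a 1.5-fold difference would leave out Mgll, Lrp1, Irs1, Irs2 and Lgals12 of the genes described above.

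**Figure D3:**
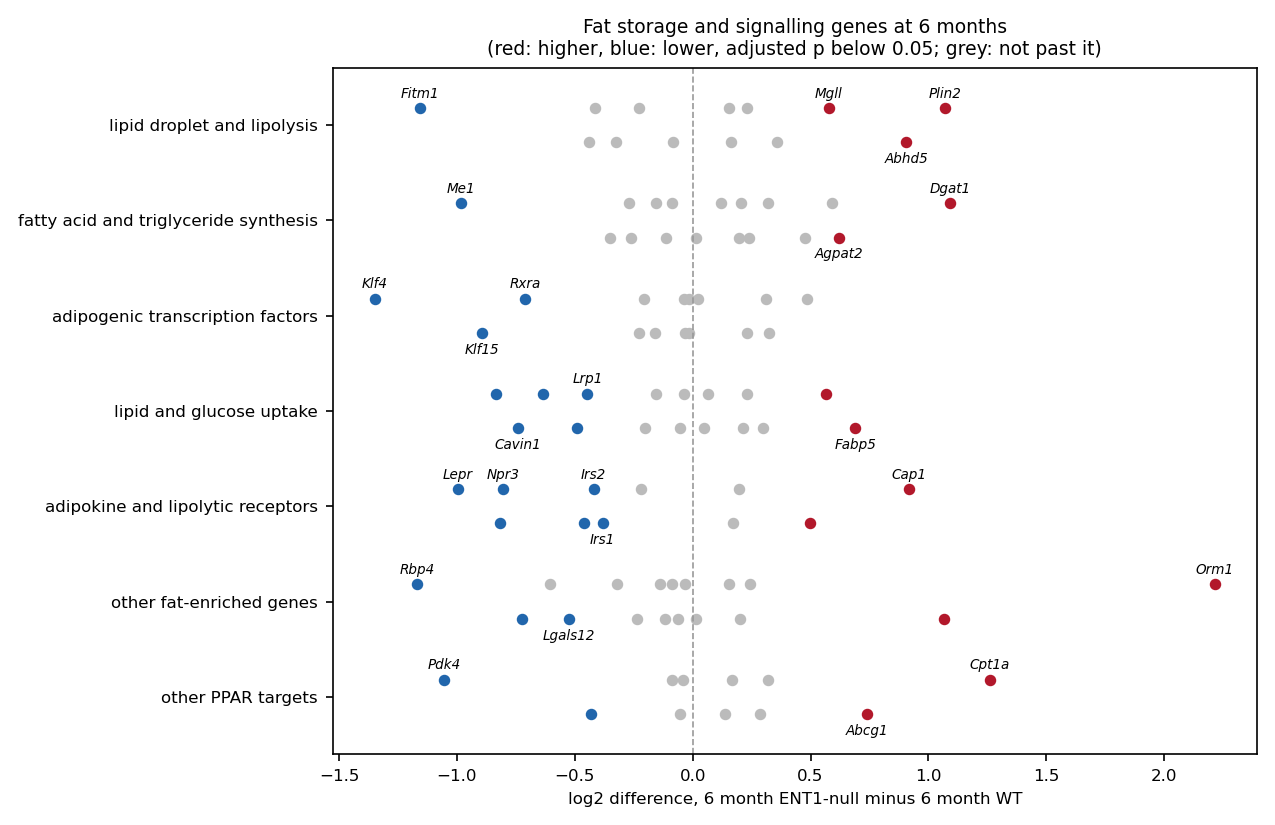
Log2 difference at 6 months, ENT1-null minus WT, for each of the 100 tested genes of the 7 lists, with names on the called genes whose values are given in the text. Red and blue points passed an adjusted p of 0.05, 13 higher and 21 lower, and every list has both colours except that of transcription factors, which has blue only.

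Several adipocyte genes are also carried by other cells, whose markers were read on the same arrays. In bulk tissue, fewer cells of a type and less RNA per cell cannot be told apart. At 6 months 8 of 9 tested macrophage markers were higher in ENT1-null and none lower, with a median of 1.197; at 2 months and by age in WT none of the 9 was called, and by age in ENT1-null 5 rose. The mean log2 level of the 10 genes was 7.51 and 8.04 in 2 month WT, 8.29 and 8.31 in 2 month ENT1-null, 7.88 on both arrays of 6 month WT, and 8.82 and 9.06 in 6 month ENT1-null. The lowest array was 2 month WT replicate 1 and the highest 6 month ENT1-null replicate 2. The same 2 arrays were lowest and highest for Adipoq, Fabp4, Pparg and Cd36, and for the marrow stroma and erythroid means given below. Cd68 rose by 1.75 ± 0.26 and C1qb by 1.45 ± 0.19, and Cd163 was below the filter level. The part of macrophage RNA in the Pparg and Cd36 differences was not tested.

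Endothelial markers gave 2 higher and none lower of 10 at 6 months, a share near the 21.2% of all genes called higher, with a median of 0.42, and none was called at 2 months or by age. Their mean level was 7.97 and 8.41 in 2 month WT, 8.40 and 8.78 in 2 month ENT1-null, 8.34 and 8.22 in 6 month WT, and 8.67 on both arrays of 6 month ENT1-null. Cdh5 differed by 0.41 ± 0.22 (limma adjusted p = 0.187) and Eng by 0.31 ± 0.16 (adjusted p = 0.160). The lowest array was 2 month WT replicate 1, as for 8 of the 9 adipocyte genes measured. The highest was 2 month ENT1-null replicate 2, whereas Fabp4 and Cd36 were highest in 6 month ENT1-null replicate 2. The part of endothelial RNA in the Fabp4 and Cd36 differences was not tested.

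Of 7 genes of marrow stroma, the cells from which marrow adipocytes arise, 4 were higher and 2 lower at 6 months. Cxcl12 rose by 1.47 ± 0.27, and Gas6 gave 0.57 ± 0.19 (limma adjusted p = 0.0507); the list also holds Lepr, which fell. Its mean level was 8.48 and 9.02 in 2 month WT, 9.26 and 9.28 in 2 month ENT1-null, 8.94 on both arrays of 6 month WT, and 9.56 and 9.57 in 6 month ENT1-null. Blood cell markers moved further: all 10 neutrophil and all 6 erythroid markers tested were higher at 6 months, with medians of 2.56 and 2.23. Elane rose by 2.54 ± 0.62, Ngp by 1.17 ± 0.38, Slc4a1 by 2.26 ± 0.37 and Ermap by 2.38 ± 0.31. The neutrophil mean was 8.86 and 10.06 in 2 month WT, 10.81 and 11.16 in 2 month ENT1-null, 10.17 and 8.60 in 6 month WT, and 11.84 and 11.78 in 6 month ENT1-null, and the erythroid mean ran from 7.43 in 2 month WT replicate 1 to 10.45 in 6 month ENT1-null replicate 2. Their part in the adipocyte gene differences was not tested.

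Skeletal muscle and annulus markers went the other way at 6 months, with 8 of 10 lower in each list and none higher. In the annulus list 9 differences were negative and 1 was positive. The positive one was Tnmd at 0.47, not called, with both ENT1-null arrays above both WT arrays. The muscle mean was 8.05 and 9.36 in 2 month WT, 8.90 and 10.42 in 2 month ENT1-null, 10.38 and 10.18 in 6 month WT, and 7.47 and 8.54 in 6 month ENT1-null, with Atp2a1 at −2.25 ± 0.65 and Tnnt3 at −2.48 ± 0.64. Between replicates, Lpl and the muscle mean were both higher in replicate 2 in the groups of 2 months, Lpl by 1.25 in WT and 0.97 in ENT1-null, and went opposite ways at 6 months, where Lpl differed by 0.12 in WT and −0.05 in ENT1-null. The annulus mean was 11.17 and 11.26 in 2 month WT, 11.02 and 11.05 in 2 month ENT1-null, 10.91 and 11.01 in 6 month WT, and 10.35 and 10.16 in 6 month ENT1-null, with Acan at −0.62 ± 0.11 and Prg4 at −0.32 ± 0.08. Whether muscle or annulus RNA had a part in the adipocyte gene values was not tested.

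**Figure D4:**
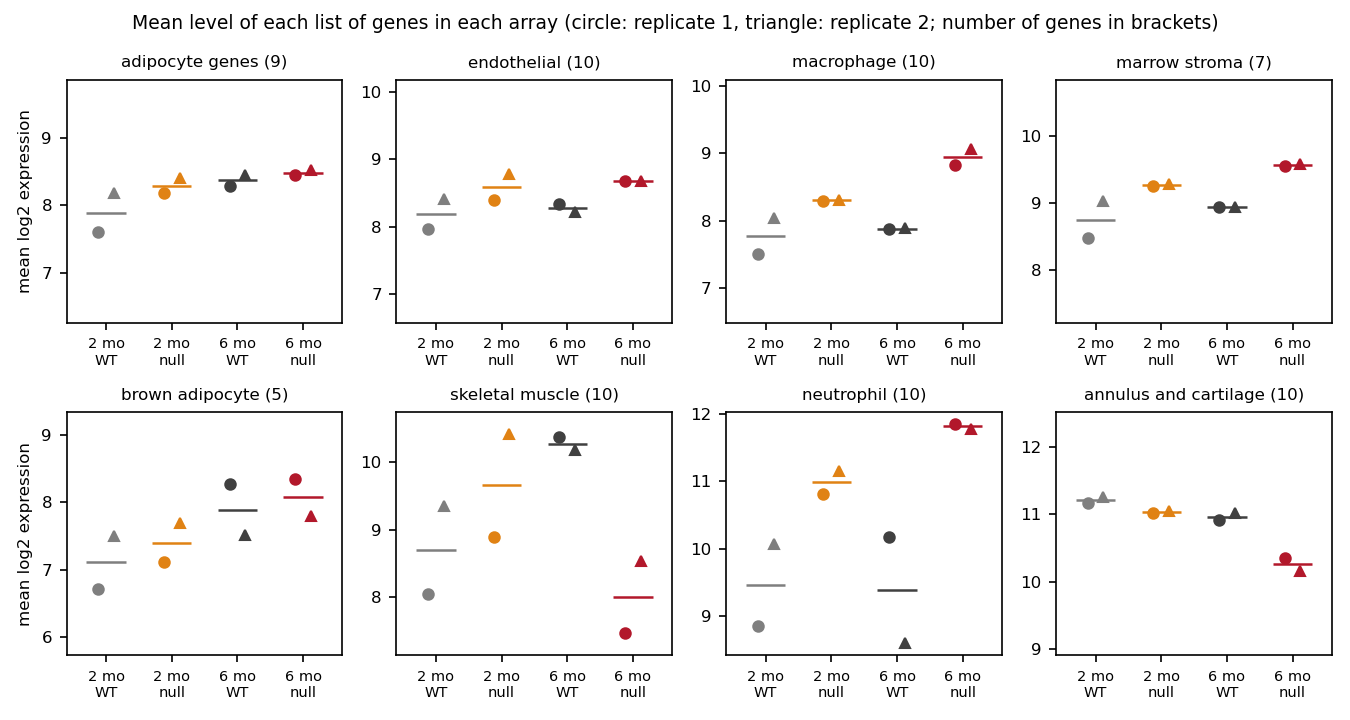
Mean log2 level of the adipocyte genes and of 7 marker lists in each array; circles are replicate 1, triangles replicate 2, bars group means, and brackets hold the number of genes. Group means of the macrophage, marrow stroma and neutrophil lists are highest in 6 month ENT1-null, where those of skeletal muscle and annulus are lowest.

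The genes whose pattern was most like that of Adipoq were sought by Pearson r over the 8 arrays. Compared were 3262 genes with an SD of at least 0.3 over the arrays. Predicted genes (Gm with a number, or Rik names) were passed over in the ranking. The 8 highest of the rest were Gcnt1 (r = 0.960), Wfdc17 (0.954), Zbed4 (0.953), Myct1 (0.945), Prxl2a (0.940), Cd80 (0.936), Stradb (0.936) and Apol11b (0.935). All are values over the same 8 arrays, so that the genes compared share the pools, genotypes and ages of those arrays. Pparg had r = 0.947 with Adipoq, Cd36 0.871 and Lep −0.36, by the same measure. Wfdc17, which encodes a small secreted protein of macrophages, was 7.73 and 8.32 in 2 month WT, 8.96 and 8.66 in 2 month ENT1-null, 8.64 and 8.72 in 6 month WT, and 9.96 and 10.19 in 6 month ENT1-null. Like Adipoq, it was higher in the ENT1-null arrays of both ages than in the WT arrays of the same age. Because it was picked for its likeness to Adipoq on these arrays, this shared pattern is not a separate result.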

How the data were processed

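RNA of thoracic annulus fibrosus was extracted with Trizol and 200 ng was made into biotin-labelled cRNA, per the labels' protocols. The deposited log2 values, 1 per probe set and array, had been made by the authors with RMA, per the submitters' processing notes; RMA corrects background, normalizes quantiles between arrays and sums probes, so that a change shared by most genes would be removed. No source used here gives the version of RMA or the build behind the array. Array medians lay between 6.77 and 6.82, and 2 arrays per group limit the precision. Each gene was read from its single-gene probe set with the highest mean; genes with a mean under the 30th percentile were left out.

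A limma model (version 3.58.1, R 4.3.3) with a mean for each of the 4 groups used all 8 arrays and left 4 residual degrees of freedom. Benjamini-Hochberg adjustment ran over 15526 genes in each comparison, and an adjusted p below 0.05 was called; "rose", "fell", "higher" for a count of genes and "called" refer to this threshold. Errors are SE of the fit. The fit was tested on simulated data. The adipocyte genes, the other lists and the rule for named genes were chosen with earlier results of these data known. Named were all adipocyte genes and, from each of the 7 lists, the 3 largest moderated statistics at 6 months. The 2 largest at 2 months and the 2 largest by age in WT were also named. From each of 8 cell marker lists came the 2 genes with the highest mean. Last came the 8 genes most like Adipoq, predicted genes passed over. Of the 114 genes of these lists, 104 were read from a probe set and the others are not analysed here; Lepr stands in 2 lists.

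Alternatives were no filter, the 50th percentile, a repeated quantile normalization, median centring, all probe sets, the probe set with the highest SD, a block for the replicate number, the trend and robust options of eBayes, a fit to only the 2 groups compared, omission of each array in turn, a threshold of 0.1 on the adjusted p, and a rule of an unadjusted p below 0.05 with a 1.5-fold difference. No label ties replicate numbers to a shared animal, batch or day. The differences between replicates correlated between groups, across genes, with r from −0.39 to 0.41. The highest r was between WT and ENT1-null of 2 months, and that between the genotypes of 6 months was −0.15. These values cannot show whether replicates were paired within an age.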

Additional observations from a re-analysis of the deposited data

Results flagged for a closer look

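In 4 of the 100 tested genes of the adipocyte-related lists (1 higher, 3 lower) the genotype difference changed with age by the interaction test, a share near the 4.45% of all genes called in it. Fabp5 differed between genotypes by −0.07 at 2 months and 0.69 at 6 months, an interaction of 0.76 (limma adjusted p = 0.0446). Fitm1 went from 0.25 to −1.16, an interaction of −1.41 (adjusted p = 0.0483). Klf4 went from −0.13 to −1.35, an interaction of −1.21 (adjusted p = 0.0356), and Rbp4 from −0.12 to −1.17, an interaction of −1.05 (adjusted p = 0.0383). With no filter on low values none of the 4 passed. Leaving out any 1 of the 8 arrays also ended the calls of Fabp5, Fitm1 and Rbp4, and leaving out any array but 6 month WT replicate 1 ended that of Klf4, with interactions of 0.64 to 0.87 for Fabp5, −1.74 to −1.08 for Fitm1, −1.304 to −1.13 for Klf4 and −1.21 to −0.88 for Rbp4 where the call was lost.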

How the results depend on the processing

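At 6 months 1 adipocyte gene (Pparg) was called, and 2 were with no filter (Lep added), a filter at the 50th percentile (Adipoq), median centring (Adipoq), the probe set with the highest SD (Lep) or an adjusted p below 0.1 (Adipoq); only the arrays compared gave 3 (Cd36 and Lpl added). Leaving out 1 array gave 1 to 2 there: without either 2 month WT array Cd36 was added, without 2 month ENT1-null replicate 1 Lep, and without 6 month WT replicate 1 Retn. At 2 months the count of 0 became 2 (Cd36 and Lpl) at an unadjusted p below 0.05 with a 1.5-fold difference, and 0 to 2 on leaving out 1 array. By age in WT the same rule gave 1 (Cd36) in place of 0. By age in ENT1-null it gave 1 (Pparg) in place of 2, and leaving out 1 array gave 0 to 3; only the arrays compared gave 3, with Retn lower. With the replicate number as a block the counts were 0 at 2 months, 1 at 6 months, 0 in the interaction, 0 by age in WT and 2 by age in ENT1-null, as without it, although over all genes the count at 2 months went from 106 to 1. Over all genes, 0 were called at 2 months by the fit to the groups compared alone, and likewise when the first WT or the second ENT1-null array of that age was left out. No adipocyte gene that was called changed sign under any alternative. Across single genes and alternatives 730 adipocyte values kept sign and call, 5 lost a call, 19 gained one and 18 uncalled values changed sign, all of these on leaving out an array. At 2 arrays a group, differences the size of that of Lpl at 2 months, with an SE of 0.42, were not resolved.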

Other observations

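A list of 5 genes covered brown and beige fat, the heat-producing kinds. Ucp1, the uncoupling protein, was 7.06 and 8.31 (log2) in 2 month WT, 7.34 and 7.92 in 2 month ENT1-null, 9.15 and 7.20 in 6 month WT, and 9.47 and 8.74 in 6 month ENT1-null. At 6 months the genotypes overlapped in Ucp1, which differed by 0.93 ± 0.65 (limma adjusted p = 0.292), and the 6 month WT arrays lay far apart. Of these 5 genes 1 rose at 6 months, a share near the 21.2% of all genes called higher. It was Elovl3, a fatty acid elongase, which rose by 0.91 ± 0.21 (adjusted p = 0.0126) and is named after its value was seen. Its level was 6.62 and 6.19 in 6 month WT and 7.57 and 7.05 in 6 month ENT1-null. Cox8b, a cytochrome oxidase subunit that muscle also carries, gave −1.03 ± 0.51 (adjusted p = 0.152).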
